A study of Komagataella pastoris with 6 samples.

Results

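The genes described here are those whose mRNA was at least 4-fold higher in a flocculating strain of the yeast *Pichia pastoris* than in its non-flocculating control. For each gene, CPM (the reads on a gene scaled to a library total of 1000000 reads) was averaged over the 3 libraries of each strain, and 0.5 CPM was added to both means before their ratio was taken. Of 5040 genes in the count table, 5029 had at least 60 reads summed over the 6 libraries, and 90 of these (1.79%) had a ratio of at least 4. The set excludes 9 of the 90 by its definition, among them genes for zinc transporters and a ferric reductase that the study discusses, which leaves 81 genes. The genes were chosen by the ratio itself, so the difference between the strains is a description, and calls over all genes are given only as background.

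KM71-ScFlo1-LpDLDH, the flocculating strain, carries *ScFLO1*, a flocculation gene of *Saccharomyces cerevisiae*, together with *LpDLDH*, which encodes a d-lactate dehydrogenase of *Leuconostoc pseudomesenteroides*, each driven by the constitutive promoter of the glyceraldehyde-3-phosphate dehydrogenase gene. The control strain, KM71-LpDLDH, carries *LpDLDH* alone. Both derive from KM71, a laboratory strain of this methylotrophic yeast. *ScFLO1* was brought in on a plasmid with the HIS4 marker, and effects of that plasmid or of the isolates chosen cannot be told apart from those of *ScFLO1* here. Cultures of both strains, 3 of each, were grown in the minimal medium MGYH, which holds glycerol and histidine, from an OD600 of 0.05 and were sampled in mid-exponential phase after about 21 h at 30 °C.

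Flocculins such as Flo1 are lectin-like proteins of the cell wall. They bind mannose chains on neighbouring cells in the presence of calcium, so that cells clump into flocs that settle out of the medium. Cells inside a floc meet their medium through a layer of other cells, and flocculation in *S. cerevisiae* is known for its association with tolerance to acids, furfural and other stresses.

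The 81 genes are described without names or functions. A table of selected genes in the study gives products for 22 identifiers, 0 of the 81 among them. Those of the 22 with a ratio of at least 4 are all among the 9 genes excluded by definition, which sets this 0. The study's full list of differentially expressed genes was not used here. In the gene table used as reference, which describes another assembly, 0 of the 5040 identifiers occurred. The genes are therefore called by the identifiers of the *P. pastoris* GS115 annotation. In these identifiers the first part names a chromosome or a piece of one and the last a serial number. Positions, strands and sequences of these genes were not analysed here, and neither were reads shared with near-identical copies. *ScFLO1* and *LpDLDH* are not genes of that genome, so their own mRNA was not analysed here either.

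Library totals ranged from 10386352 to 12494758 reads on genes in KM71-ScFlo1-LpDLDH and from 12127429 to 12767753 in KM71-LpDLDH. Replicate libraries of a strain differed by 11.9 to 68.0 times the variance of counting alone, and all 6 were kept as separate cultures, as the methods describe them. The median log2 ratio over the 5029 genes was 0.13 with CPM by column totals, as the rule has it, and 0.02 after TMM scaling (trimmed mean of M-values, a scaling set by the bulk of genes), so ratios below are slightly higher than TMM would give. With TMM scaling 69 of the 81 genes kept a ratio of at least 4, and the 12 that dropped below it had a ratio of at most 4.29.

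All 81 genes had every library of KM71-ScFlo1-LpDLDH above every library of KM71-LpDLDH, which held for 40.2% of the 5029 genes. edgeR's quasi-likelihood test over all genes, at 0.05 for the p adjusted by Benjamini-Hochberg and more than 2-fold, called 81 of the 81 higher, against 8.41% of all genes. Above 4-fold it called 70 of the 81, against 1.53% of all genes. The same libraries chose the genes, so these 3 counts follow largely from the rule and test nothing about them. The ratio lay between 4 and 5 for 31 genes, between 5 and 6 for 19, between 6 and 8 for 13, and at 8 or more for 18, with a median of 5.31. For 37 genes the lowest library of KM71-ScFlo1-LpDLDH was at least 4 times the highest of KM71-LpDLDH (0.5 CPM added to both), which held for 0.855% of all genes. Any gene that meets this limit also has a ratio of means of at least 4, so this share is set by the rule too.

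**Figure D1:**
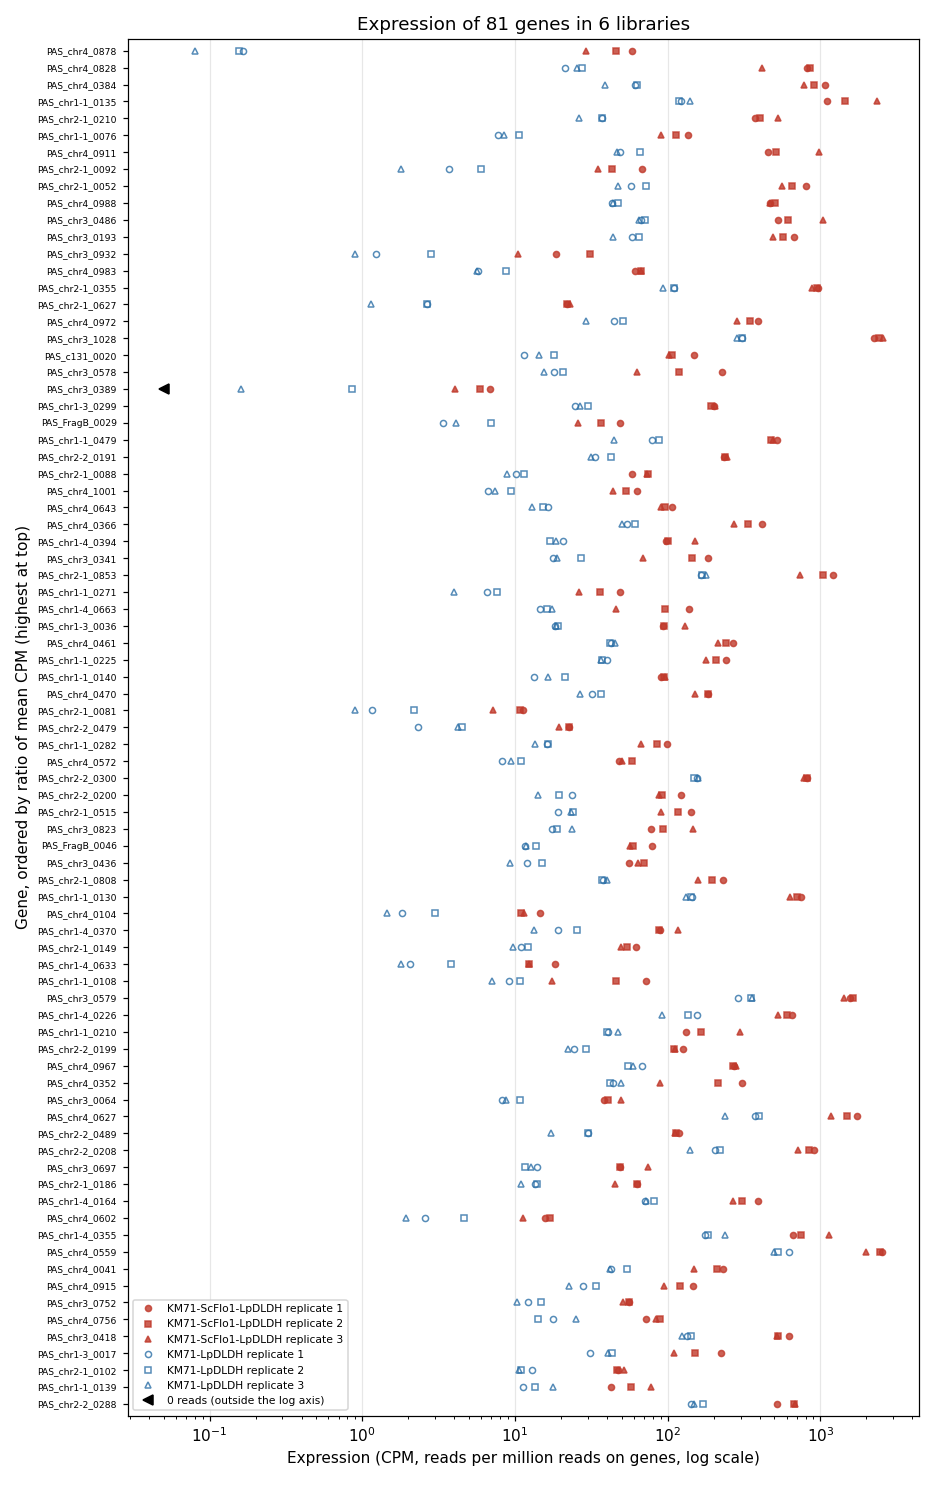
Expression of the 81 genes in the 6 libraries, in CPM on a logarithmic axis, with 1 row per gene and the genes ordered by their ratio. Filled red symbols are the 3 libraries of KM71-ScFlo1-LpDLDH, open blue symbols those of KM71-LpDLDH, and the black triangle marks a library with 0 reads. In every row the red symbols lie right of the blue ones, with the widest gap for PAS_chr4_0878 and the narrowest for PAS_chr1-1_0108.

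Only PAS_chr4_0878 was near silent in the control strain. It had 725, 508 and 303 reads in replicates 1, 2 and 3 of KM71-ScFlo1-LpDLDH, against 2, 2 and 1 reads in those of KM71-LpDLDH. That corresponds to 44.3 ± 14.5 CPM in KM71-ScFlo1-LpDLDH and 0.134 ± 0.0463 CPM in KM71-LpDLDH (SD, n = 3 each), or a ratio of 70.7 with the added 0.5 CPM. Without that addition the ratio of the summed reads, scaled by the summed library totals of each strain, was 337. Its exact binomial 95% bounds, for counting error alone, were 144 and 1039. The size of this difference thus depends on how the few control reads are treated, while the control stayed at 2 reads or fewer in each library. In KM71-ScFlo1-LpDLDH the gene was at a moderate level, below the median of 89.4 CPM over all tested genes in that strain.

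PAS_chr3_0389 came closest to the same pattern at a much lower level. It had 86, 65 and 42 reads in replicates 1, 2 and 3 of KM71-ScFlo1-LpDLDH, against 0, 11 and 2 reads in those of KM71-LpDLDH. Nearly all its control reads thus came from replicate 2. The ratio of scaled summed reads was 16.3, with 95% bounds of 9.30 and 31.1 for counting error alone. Its mean of 5.60 CPM in KM71-ScFlo1-LpDLDH was the lowest of the 81 genes. With a limit of 10 reads in any KM71-LpDLDH library, 1 gene counts as on/off, and with a limit of 20 reads, or without replicate 2 of KM71-LpDLDH, this gene makes it 2.

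The other 79 genes were expressed in both strains. A further 5 had fewer than 100 reads in all over the 3 libraries of KM71-LpDLDH. Among them PAS_chr3_0932 had 233, 344 and 108 reads in KM71-ScFlo1-LpDLDH, against 15, 36 and 11 in KM71-LpDLDH. Its ratio of scaled summed reads was 12.1, with a lower 95% bound of 9.33. PAS_chr2-1_0627 had 273, 243 and 239 reads in KM71-ScFlo1-LpDLDH and 32, 34 and 14 in KM71-LpDLDH. The same ratio was 10.3 for it, with bounds of 8.21 and 13.2, again for counting error alone. Both genes were thus low but plainly counted in the control. The same ratio was 6.91 for PAS_chr2-1_0081, 5.92 for PAS_chr4_0104 and 5.63 for PAS_chr1-4_0633.

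Most of the 81 genes started from a low level. Their median in KM71-LpDLDH was 22.1 CPM, with quartiles at 11.5 and 54.8 CPM, against 83.8 CPM over all 5029 genes. In KM71-LpDLDH 67 of the 81 lay below the median of all genes, and 37 lay below the 10th percentile of 19.3 CPM. In KM71-ScFlo1-LpDLDH their median was 119 CPM, against 89.4 CPM over all genes. There 53 of the 81 lay above the median of all genes, 39 of them from below it in KM71-LpDLDH, and 23 lay above the 90th percentile of 387 CPM. The start level is the denominator of the ratio, so a low start favours entry to the set. By contrast, the 75 genes at least 4-fold lower in KM71-ScFlo1-LpDLDH had a median of 71.4 CPM in that strain and 456 CPM in KM71-LpDLDH.

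The share of genes that entered the set fell with the start level. Of the 68 genes under 5 CPM in KM71-LpDLDH 11 were members (16.2%), and of the 454 from 5 to 20 CPM 27 were (5.95%). From 20 to 50 CPM the share was 20 of 1089 (1.84%), from 50 to 150 CPM 14 of 1864 (0.751%), and from 150 CPM upwards 9 of 1554 (0.579%). High ratios were not limited to the lowest starts, however. In these 5 bands, from the lowest start to the highest, a ratio of at least 8 was reached by 4 of 11, 2 of 27, 4 of 20, 7 of 14 and 1 of 9 members. These are shares of the members, and the share of all genes that were members fell as given above. The added 0.5 CPM also lowers ratios most at the lowest starts.

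**Figure D2:**
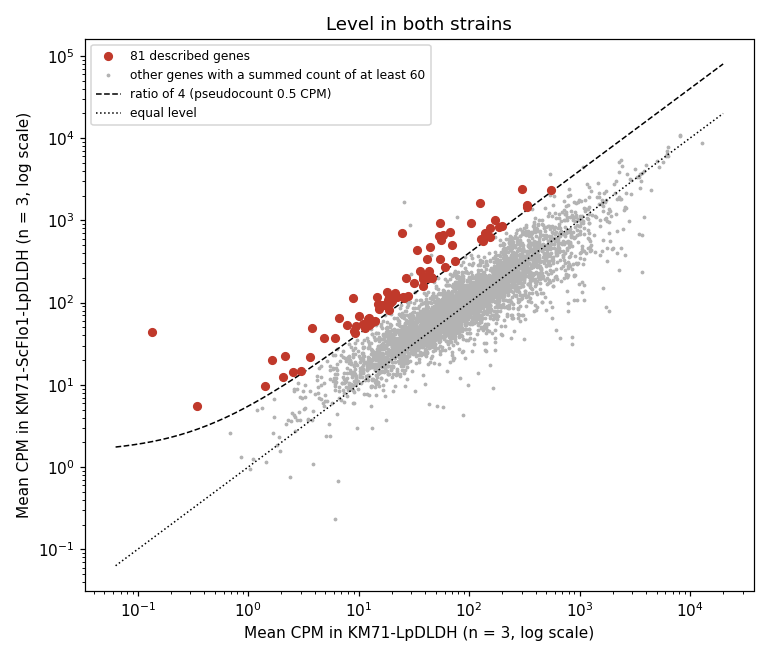
Mean CPM in KM71-ScFlo1-LpDLDH (vertical) against mean CPM in KM71-LpDLDH (horizontal), both on logarithmic axes, for the 5029 genes with at least 60 reads. Red points are the 81 described genes, which lie on or above the dashed line of a ratio of 4, mostly at starts below 83.8 CPM. The 9 genes set aside are among the grey points above that line.

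Besides PAS_chr4_0878, the ratio was at least 10 for 11 of the 81 genes. The next highest was that of PAS_chr4_0828, with 812, 855 and 413 CPM in replicates 1, 2 and 3 of KM71-ScFlo1-LpDLDH, against 21.3, 27.3 and 25.3 CPM in those of KM71-LpDLDH. Its ratio was 27.6 (log2 ratio 4.79, standard error 0.35 over the log2 values of the libraries). Its level in replicate 3 of KM71-ScFlo1-LpDLDH was below that in the other cultures of that strain, and even there it was 14.9 times the highest control library, with 0.5 CPM added to both.

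PAS_chr4_0384 had 1071, 912 and 779 CPM in KM71-ScFlo1-LpDLDH, against 61.1, 63.0 and 38.8 CPM in KM71-LpDLDH, a ratio of 16.8 (log2 ratio 4.07, standard error 0.26). PAS_chr1-1_0135 had 1111, 1442 and 2355 CPM in KM71-ScFlo1-LpDLDH and 122, 118 and 140 CPM in KM71-LpDLDH, a ratio of 12.9. Of the members with a ratio of at least 10 it was the most abundant in the flocculating strain. Its level there differed between cultures, while its control libraries lay close together. PAS_chr2-1_0210 reached 375, 403 and 531 CPM in KM71-ScFlo1-LpDLDH, against 37.4, 37.0 and 26.3 CPM in KM71-LpDLDH, a ratio of 12.8. PAS_chr1-1_0076, at 135, 114 and 90.5 CPM in KM71-ScFlo1-LpDLDH against 7.75, 10.7 and 8.41 CPM in KM71-LpDLDH, had a ratio of 12.0. These 2 genes reached a similar ratio from starts that differed several-fold.

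PAS_chr4_0911 had 453, 511 and 975 CPM in KM71-ScFlo1-LpDLDH, against 48.9, 66.3 and 46.5 CPM in KM71-LpDLDH, a ratio of 11.9. PAS_chr2-1_0092 had 68.3, 43.4 and 34.9 CPM in KM71-ScFlo1-LpDLDH and 3.71, 5.95 and 1.78 CPM in KM71-LpDLDH, a ratio of 11.4 with a standard error of 0.52 on the log2 scale. It was the least certain of these ratios, because its 3 control libraries spanned a 3.34-fold range. For PAS_chr2-1_0052 the ratio was 11.4, from 809, 647 and 561 CPM in KM71-ScFlo1-LpDLDH and 57.1, 71.7 and 47.1 CPM in KM71-LpDLDH. PAS_chr4_0988 was the steadiest of the group, with 470, 502 and 470 CPM in KM71-ScFlo1-LpDLDH against 43.0, 47.3 and 43.6 CPM in KM71-LpDLDH. Its ratio of 10.7 had a standard error of 0.05 on the log2 scale. PAS_chr3_0486 and PAS_chr3_0193 completed the group with ratios of 10.6 and 10.2.

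Of the genes with a ratio between 8 and 10, PAS_chr2-1_0355 had 961, 952 and 874 CPM in KM71-ScFlo1-LpDLDH, against 110, 111 and 93.3 CPM in KM71-LpDLDH, a ratio of 8.85. PAS_chr4_0983 had 61.3, 67.2 and 66.3 CPM in KM71-ScFlo1-LpDLDH, against 5.69, 8.69 and 5.66 CPM in KM71-LpDLDH, a ratio of 9.11. PAS_chr4_0972 had 393, 344 and 283 CPM in KM71-ScFlo1-LpDLDH and 44.4, 50.6 and 29.2 CPM in KM71-LpDLDH, a ratio of 8.12. These genes covered low, middle and high levels with a wide gap between the strains in each. Between 6 and 8, PAS_c131_0020 had 148, 106 and 102 CPM in KM71-ScFlo1-LpDLDH, against 11.4, 17.9 and 14.3 CPM in KM71-LpDLDH. PAS_chr1-3_0299 had 201, 191 and 205 CPM in KM71-ScFlo1-LpDLDH and 24.6, 30.2 and 26.6 CPM in KM71-LpDLDH. Libraries of a strain lay close together for PAS_chr1-3_0299 and less so for PAS_c131_0020.

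The 81 genes took 2.91%, 2.80% and 2.75% of the reads of replicates 1, 2 and 3 of KM71-ScFlo1-LpDLDH, against 0.468%, 0.490% and 0.427% of those of KM71-LpDLDH. Their summed share was thus nearly the same in all cultures of a strain, although single genes varied more. The 5 most abundant members in KM71-ScFlo1-LpDLDH held between 31.6% and 34.6% of the reads of the set in that strain and between 34.6% and 36.5% in KM71-LpDLDH.

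PAS_chr3_1028 was the most abundant, with 2259, 2402 and 2550 CPM in KM71-ScFlo1-LpDLDH, against 308, 307 and 283 CPM in KM71-LpDLDH, a ratio of 8.02 (log2 ratio 3.00, standard error 0.06). No other gene that started above 150 CPM reached a ratio of 8. PAS_chr4_0559 had 2536, 2440 and 1982 CPM in KM71-ScFlo1-LpDLDH, against 620, 526 and 498 CPM in KM71-LpDLDH, a ratio of 4.23. It had the highest start of the set. PAS_chr3_0579, at 1552, 1636 and 1428 CPM in KM71-ScFlo1-LpDLDH and 286, 350 and 358 CPM in KM71-LpDLDH, had a ratio of 4.64. PAS_chr4_0627 had 1733, 1501 and 1181 CPM in KM71-ScFlo1-LpDLDH, against 374, 394 and 238 CPM in KM71-LpDLDH, a ratio of 4.39. The 5 highest in KM71-ScFlo1-LpDLDH also include PAS_chr1-1_0135, and the 5 highest starts include PAS_chr1-4_0355, with 849 ± 249 CPM in KM71-ScFlo1-LpDLDH and 199 ± 34.1 CPM in KM71-LpDLDH (SD, n = 3 each).

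PAS_chr2-2_0288 (ratio 4.02), PAS_chr1-1_0139 (4.06) and PAS_chr2-1_0102 (4.09) were the last to enter. PAS_chr3_0211 (3.99), PAS_chr3_0864 (3.97) and PAS_chr2-2_0116 (3.92) were the first to be left out. PAS_chr2-2_0288 had 621 ± 91.0 CPM in KM71-ScFlo1-LpDLDH and 154 ± 15.2 CPM in KM71-LpDLDH (SD, n = 3 each). PAS_chr3_0211 had 52.7, 63.7 and 94.1 CPM in KM71-ScFlo1-LpDLDH, against 18.1, 16.2 and 17.3 CPM in KM71-LpDLDH. For PAS_chr2-2_0288 and PAS_chr3_0211, on either side of the line, the strains did not overlap. In all, 63 genes had a ratio between 3 and 4, the 3 just outside among them.

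The rule was also applied with replicate 1, 2 or 3 of both strains left out, and the ratio of the left-out libraries was then read for the genes so chosen. Without replicate 1, 75 genes were chosen, with a median ratio of 5.18 in the 4 libraries that chose them. In the left-out libraries their median was 6.27 and 63 of the 75 (84.0%) reached 4, against 2.07% of all genes. Without replicate 2, 88 genes with a median of 5.46 had a median of 4.81 in the left-out libraries, where 64 of the 88 (72.7%) reached 4, against 1.53% of all genes. Without replicate 3, 78 genes with a median of 5.60 had a median of 5.44 in the left-out libraries, where 60 of the 78 (76.9%) reached 4, against 1.81% of all genes. In the left-out replicate 1 a ratio above 2 was seen for 75 of the 75 genes, against 13.8% of all genes. It was seen for 88 of the 88 in replicate 2, against 8.79%, and for 76 of the 78 in replicate 3, against 9.86%. Each time, some of the chosen genes were below the threshold of 4 in the cultures that had not chosen them.

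**Figure D3:**
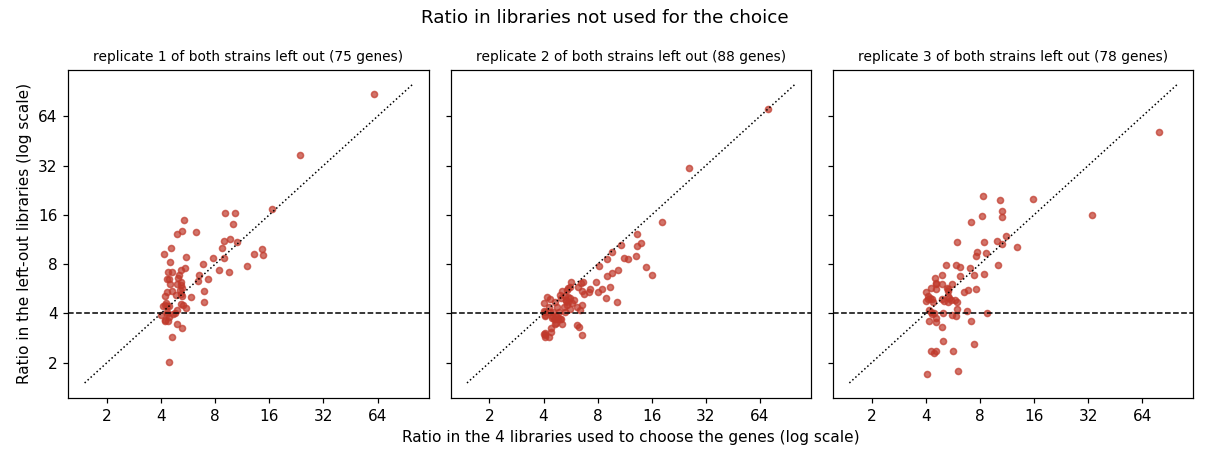
Ratio of KM71-ScFlo1-LpDLDH over KM71-LpDLDH in the libraries left out (vertical) against the ratio in the 4 libraries that chose the genes (horizontal), both logarithmic, with 1 panel for each replicate number left out. Points are genes, the dotted line marks equal ratios and the dashed line a ratio of 4. Above the dashed line lie 63 of 75, 64 of 88 and 60 of 78 genes.

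The range among the 3 flocculating cultures is described next. The rule uses their mean, which 1 high culture raises, and the genes were not matched for level with the others, so the shares below are not a test. The highest of the 3 cultures was at least 2 times the lowest for 11 of the 81 genes (13.6%), against 0.935% of all 5029 genes. The median of that range was 1.40 for the set and 1.19 over all genes, and in KM71-LpDLDH it was 1.35 and 1.17. In KM71-LpDLDH the range reached 2 for 10 of the 81 (12.3%), against 0.795% of all genes. The 10 include PAS_chr3_0389, whose range has no value because 1 library had 0 reads. All 10 started below 5 CPM, where few reads were counted. The 11 variable genes of KM71-ScFlo1-LpDLDH reached means of up to 1636 CPM, and 1 gene, PAS_chr3_0932, was among both groups.

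The variable genes did not share a single high culture. In 6 of the 11 replicate 1 was highest, in 2 replicate 2 and in 3 replicate 3. PAS_chr1-1_0108 had the widest range, 4.11-fold, with 72.0, 45.5 and 17.5 CPM in replicates 1, 2 and 3 of KM71-ScFlo1-LpDLDH against 9.07, 10.8 and 7.12 CPM in those of KM71-LpDLDH. Its lowest flocculating culture was only 1.59 times its highest control library, the smallest gap of the 81. PAS_chr3_0578, at 227, 118 and 63.4 CPM in KM71-ScFlo1-LpDLDH against 18.1, 20.6 and 15.4 CPM in KM71-LpDLDH, had a 3.58-fold range. PAS_chr4_0352 had 307, 215 and 88.4 CPM in KM71-ScFlo1-LpDLDH and 44.0, 42.1 and 49.3 CPM in KM71-LpDLDH, a 3.47-fold range. In these 3 genes replicate 1 was highest and replicate 3 lowest. PAS_chr1-4_0663, PAS_chr3_0341 and PAS_chr1-3_0017 were likewise highest in replicate 1, with ranges of 3.02, 2.65 and 2.01.

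Replicate 3 was highest in PAS_chr1-1_0210, with 132, 164 and 296 CPM in KM71-ScFlo1-LpDLDH against 40.4, 40.2 and 46.9 CPM in KM71-LpDLDH. PAS_chr4_0911 and PAS_chr1-1_0135, given above, were also highest in replicate 3, at ranges of 2.15 and 2.12. In PAS_chr3_0932 replicate 2 was highest, with 18.6, 31.0 and 10.4 CPM in KM71-ScFlo1-LpDLDH against 1.24, 2.82 and 0.890 CPM in KM71-LpDLDH. Its highest control library was replicate 2 as well. PAS_chr4_0828, with replicate 2 highest and replicate 3 lowest, was the other gene of that kind.

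At the other end, 20 of the 81 genes stayed within a 1.2-fold range among the flocculating cultures (24.7%), against 53.0% of all genes. The set was about as variable in the control. A range of 1.2 or more was found for 61 of the 81 (75.3%) in each strain. Over all genes that share was 47.0% in KM71-ScFlo1-LpDLDH and 40.5% in KM71-LpDLDH. PAS_chr4_0967 was the steadiest, with 271, 269 and 280 CPM in KM71-ScFlo1-LpDLDH, against 67.5, 54.7 and 59.2 CPM in KM71-LpDLDH. PAS_chr2-1_0627 had 21.8, 21.9 and 23.0 CPM in KM71-ScFlo1-LpDLDH, against 2.64, 2.66 and 1.13 CPM in KM71-LpDLDH. PAS_chr2-2_0300 had 819, 815 and 776 CPM in KM71-ScFlo1-LpDLDH, against 156, 149 and 157 CPM in KM71-LpDLDH. Steady genes were thus found at low, middle and high levels.

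Over the whole set, replicate 1 of KM71-ScFlo1-LpDLDH was the highest culture for 49 of the 81 genes (60.5%) and replicate 3 the lowest for 51 (63.0%). Over all genes these shares were 55.2% and 61.4%, so the set was close to the libraries as a whole. In KM71-LpDLDH replicate 2 was highest for 55 of the 81 (67.9%) and replicate 3 lowest for 46 (56.8%), against 48.6% and 44.8% over all genes. Set against the mean of the 3 control libraries, 72, 74 and 64 of the 81 genes reached a ratio of 4 in replicates 1, 2 and 3 of KM71-ScFlo1-LpDLDH, and 55 did so in every one of them. Over all genes these shares were 1.83%, 1.73% and 1.55%, and 1.21% in every culture. The mean of the same libraries chose the genes, so these counts are largely set by the rule. The median ratios were 6.15, 5.40 and 4.92.

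**Figure D4:**
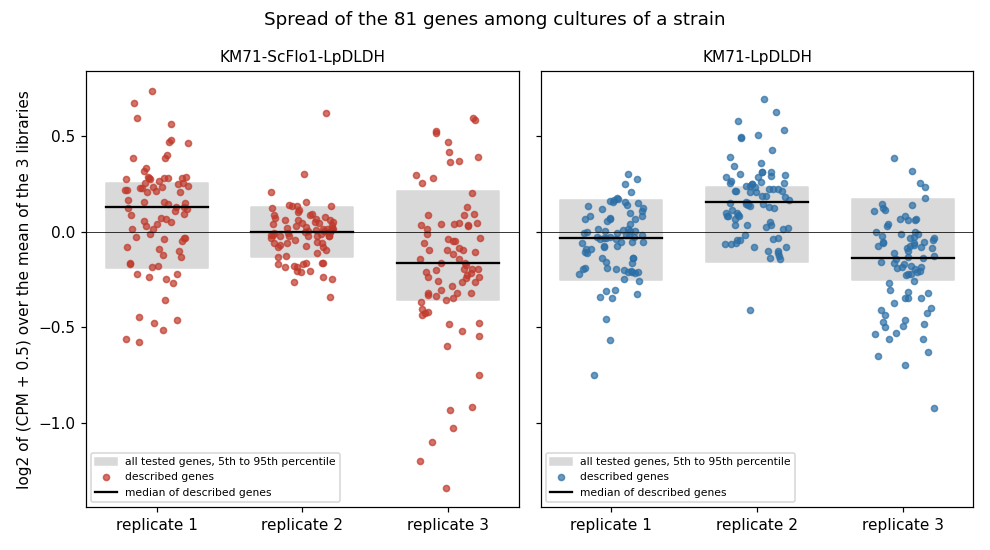
Level of each of the 81 genes in each culture, as log2 of CPM + 0.5 over the mean of the 3 libraries of its strain, with KM71-ScFlo1-LpDLDH on the left and KM71-LpDLDH on the right. Points are genes, black bars their medians, and grey boxes hold the 5th to 95th percentile of all 5029 genes. The points reach beyond the boxes in replicates 1 and 3 of KM71-ScFlo1-LpDLDH in both directions, and fall lowest for PAS_chr1-1_0108 in replicate 3. Points beyond the boxes also occur in other libraries. Examples are PAS_chr3_0932 in replicate 2 of KM71-ScFlo1-LpDLDH and PAS_chr2-1_0092 in replicate 3 of KM71-LpDLDH.

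By identifier, the 81 genes were spread over 9 of the 11 parts of the annotation. The part chr4 held 22 of its 946 genes (2.33%), chr3 14 of 1177 (1.19%), chr2-1 13 of 858 (1.52%) and chr1-1 11 of 480 (2.29%), against 1.61% of all genes. The parts chr2-2, chr1-4 and chr1-3 held 8, 7 and 3. PAS_FragB_0029, PAS_FragB_0046 and PAS_c131_0020 lay on small parts. Toward the high end of chr4, whose last number is 1001, 5 of the 42 genes with the highest numbers were members, namely PAS_chr4_0967, PAS_chr4_0972, PAS_chr4_0983, PAS_chr4_0988 and PAS_chr4_1001. That stretch of numbers was picked after its values were seen, and whether serial numbers follow position was not tested. Over all parts, 17 of the 81 (21.0%) had a number within 50 of the first or last number of a part, against 16.4% of all genes. Within 50 of the last number alone were 14 of the 81 (17.3%), against 9.19% of all genes. The smallest parts count in full by this measure.

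Adjacent identifier numbers occurred in 3 pairs of members, or 6 of the 81 genes. Of the 151 tested genes next to a member, 6 were themselves members (3.97%), against 1.61% of all tested genes. No further pair was added when numbers up to 3 apart were allowed. The pair PAS_chr3_0578 and PAS_chr3_0579 combined the variable low gene and the steady abundant gene given above. The reads of the first were 0.146, 0.0719 and 0.0444 of those of the second in replicates 1, 2 and 3 of KM71-ScFlo1-LpDLDH, against 0.0630, 0.0588 and 0.0430 in those of KM71-LpDLDH. The 2 genes therefore did not keep a constant proportion.

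PAS_chr2-2_0199 had 126, 110 and 111 CPM in KM71-ScFlo1-LpDLDH, against 24.3, 29.4 and 22.2 CPM in KM71-LpDLDH. Its neighbour PAS_chr2-2_0200 had 121, 91.9 and 87.8 CPM in KM71-ScFlo1-LpDLDH, against 23.5, 19.3 and 14.2 CPM in KM71-LpDLDH. Their ratios, 4.51 and 5.18, were close, and so were their levels. In the third pair PAS_chr1-1_0139 had 42.3, 57.4 and 77.8 CPM in KM71-ScFlo1-LpDLDH, against 11.2, 13.6 and 17.8 CPM in KM71-LpDLDH, a ratio of 4.06. PAS_chr1-1_0140 had 90.7, 94.0 and 96.6 CPM in KM71-ScFlo1-LpDLDH, against 13.3, 21.2 and 16.5 CPM in KM71-LpDLDH, a ratio of 5.39. The first of these varied among the flocculating cultures and the second did not.

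Every member had at least 1 counted gene at the next identifier number, and none of these was a gene set aside. Apart from members, 145 such neighbours were counted, with a median ratio of 1.13. Over the 4939 tested genes that were neither members nor among the 9 set aside it was 1.08. A ratio above 2 was found for 24 of the 145 (16.6%), against 8.60% of those 4939 genes, and a ratio below 0.5 for 7 (4.83%), against 6.84%. At a distance of 2 numbers 17 of 147 neighbours (11.6%) exceeded 2, and at a distance of 3 numbers 12 of 150 (8.00%) did. For 53 of the 81 genes no gene at the next number exceeded 2. Whether reads of a member were counted on its neighbour was not tested.

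PAS_chr1-4_0369, next to PAS_chr1-4_0370, had the highest ratio of these neighbours, 3.68, with 381 ± 15.3 CPM in KM71-ScFlo1-LpDLDH and 103 ± 18.1 CPM in KM71-LpDLDH (SD, n = 3 each). PAS_chr1-4_0370 itself had 97.6 ± 16.5 CPM in KM71-ScFlo1-LpDLDH and 19.3 ± 6.13 CPM in KM71-LpDLDH (SD, n = 3 each), so here the neighbour was the more abundant gene. PAS_chr4_0914, next to PAS_chr4_0915, had a ratio of 3.61, and PAS_chr3_1029, next to PAS_chr3_1028, one of 3.23. Other neighbours went the opposite way. PAS_chr4_0042, next to PAS_chr4_0041, had 150 ± 41.1 CPM in KM71-ScFlo1-LpDLDH and 1619 ± 94.5 CPM in KM71-LpDLDH (SD, n = 3 each). PAS_chr4_0041 had 232, 210 and 148 CPM in KM71-ScFlo1-LpDLDH, against 42.8, 54.0 and 41.8 CPM in KM71-LpDLDH. PAS_chr1-1_0281 had 5.52 ± 1.48 CPM in KM71-ScFlo1-LpDLDH and 51.4 ± 3.64 CPM in KM71-LpDLDH (SD, n = 3 each), while PAS_chr1-1_0282 had 83.5 ± 16.7 CPM in KM71-ScFlo1-LpDLDH and 15.3 ± 1.65 CPM in KM71-LpDLDH. In these 2 pairs the genes of adjacent number differed between the strains in opposite directions.

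**Figure D5:**
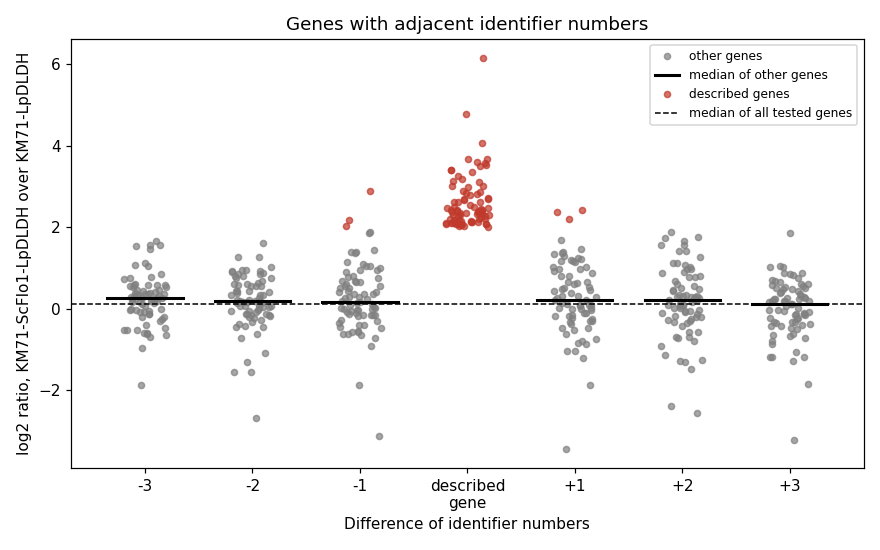
Log2 ratio of KM71-ScFlo1-LpDLDH over KM71-LpDLDH for the 81 genes (centre) and for the genes whose identifier numbers differ from theirs by 1, 2 or 3 on either side. Red points are members of the set, grey points other genes, black bars the medians of the grey points and the dashed line the median of all 5029 genes. The 3 pairs of adjacent members are the red points at a difference of 1, and the grey medians lie near the dashed line at every distance.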

How the data were processed

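Cultures of KM71-ScFlo1-LpDLDH (3) and KM71-LpDLDH (3) were sequenced as paired reads of 150 nt. Per the methods, fastp cleaned the reads, HISAT2 aligned them to the GS115 assembly and HTSeq-count gave reads per gene. Neither tool versions nor strand settings are given in the sources read. The deposited table of whole-number read counts is named as normalized. It was treated as raw counts because its values are whole and its column totals differ. Columns named DF1 to DF3 and D1 to D3 were assigned through the sample titles and the study's legend.

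CPM was computed from column totals. Members were the genes with at least 60 summed reads and a ratio of at least 4 after adding 0.5 CPM, less 9 identifiers. The members, the lists and the rule for the genes named (on/off, highest ratios and levels, adjacent identifiers, threshold, widest and narrowest ranges among flocculating cultures) were chosen with earlier results of these data known. As background, edgeR 4.0.16 in R 4.3.3 (quasi-likelihood test, TMM, mean of at least 10 reads) was run on all genes, after a check on simulated counts, with DESeq2 1.42.0 as an alternative. The columns that belong to no sample numbered 0. Intervals cover counting error only. Functional groups planned by product words were not formed, since 0 identifiers matched the reference gene table.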

Additional observations from a re-analysis of the deposited data

How the results depend on the processing

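The number of members was 81. It was 37 when the lowest library of KM71-ScFlo1-LpDLDH was set over the highest of KM71-LpDLDH in place of the means, and 144, 50 and 18 at thresholds of 3, 5 and 8. It ranged from 74 to 84 with each library left out in turn, and was 69 with TMM scaling, 67 with DESeq2 size factors and 66 with no scaling. With 0.1, 1 and 5 CPM added in place of 0.5 CPM it was 83, 78 and 55. The counts under left-out libraries, scalings and added CPM were all within 1.5 times of 81. On/off members were 1 with limits of 5 and 10 reads, 2 with a limit of 20 reads and 2 with a mean under 1 CPM, and between 1 and 2 with each library left out. The median start level stayed within the spread of the replicates under other scalings and without each KM71-LpDLDH library. Genes called higher by edgeR over all genes numbered 423, and 77 at a fold change above 4. They were 402 to 467 with each library left out, 408 with DESeq2 size factors and 522 with column totals. Deviations of same-numbered libraries of the 2 strains correlated at -0.13, 0.05 and 0.11, and those of differently numbered ones at -0.25 to 0.28. With 3 libraries per strain these values cannot settle whether cultures were paired. With the replicate block 425 genes were called. Ratios of members with few control reads are limited by depth, and the shares in left-out libraries with TMM scaling (lowest 70.7%, against 72.7%) were added after seeing the data.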
